A study of Mus musculus with 7 samples.

Results

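The B cell receptors of inguinal lymph node (iLN) B cells were compared between wild-type (WT) mice and 5xFAD mice, with 1 single-cell library for each genotype. Members were all cell barcodes with exactly 1 productive immunoglobulin heavy chain in either library. These were 2200 cells of the WT library and 2107 cells of the 5xFAD library, 4307 of the 19869 such cells in the 7 libraries of the study. The other libraries were prepared from deep cervical lymph nodes (dCLN) and superficial cervical lymph nodes (sCLN) of both genotypes, and from a mixture of all nodes and genotypes that was not used for comparison. All animals were female mice aged 10 to 11 months, perfused before the nodes were taken, and the nodes were dissociated enzymatically. The 5xFAD strain is a transgenic Alzheimer's disease model in which the neuronal Thy1 promoter drives the transgenes, and amyloid builds up in its brain. The other animals are labelled WT. Cells of several tubes were tagged with hashtag antibodies and pooled, and neither the number of animals nor the animal of a cell was used here. A library is therefore 1 sample, the comparison is one of 2 libraries, and no difference between them has a replicate check or a test.

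Inguinal nodes collect lymph from the flank, lower abdomen and hind limb and not from the head, whereas lymph from the head, the meninges included, passes to the cervical nodes. Each B cell assembles its heavy chain from a V, a D and a J segment and its light chain from a V and a J segment, at the kappa or the lambda locus. The enzyme TdT adds untemplated N bases at the joints, and the joint itself forms CDR3, the most variable loop of the antigen binding site. Naive B cells carry IgM and IgD. After activation, the enzyme AID introduces point mutations into the V segments and exchanges the constant region for one of IgG, IgA or IgE, which is called class switching.

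The label of the cells is immune cells. Both libraries held heavy and light immunoglobulin chains and 0 contigs of a T cell receptor, and gene expression was not used here, so the B cell type was read from the receptor alone. UMI depth was close: the WT library held 112734 immunoglobulin UMIs (unique molecular identifiers, 1 per captured transcript) and the 5xFAD library 99906, and the median cell of both had 11 heavy chain UMIs. Reads per UMI differed, at 114.3 in WT and 73.97 in 5xFAD. A constant region was called in 2167 and 2084 cells, a light chain was found in 2171 and 2088 cells, and a D segment was called in 1991 and 1904. The libraries shared 9 cell barcodes, and 59 WT and 43 5xFAD cells had a barcode that also occurred in another library. Intervals below are exact Clopper-Pearson 95% intervals. Differences are 5xFAD minus WT, with intervals that join both exact intervals. All cover counting error only.

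Germline D segments are shown first, because D segments make up the centre of the heavy chain CDR3 and because their reading frame is a result below. They are taken from the GENCODE M21 transcripts on GRCm38 chromosome 12, minus strand, with the tyrosine codons of the commonest reading frame in capitals. IGHD2-4 was called alone in 0 inguinal cells, so its commonest frame was not counted. It is shown with its first base at codon position 2.
IGHD1-1: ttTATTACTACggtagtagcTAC
IGHD2-3: tcTATgatggtTACTAC
IGHD2-4: tcTACTATgatTACgac
IGHD4-1: ctaactgggac
IGHD3-2: agacagctcaggcTAC
IGHD1-1 lies at 113482170 to 113482192, IGHD2-3 at 113475400 to 113475416, IGHD2-4 at 113470694 to 113470710, IGHD4-1 at 113430528 to 113430538, next to the J segments, and IGHD3-2 at 113448214 to 113448229. In the frame shown, IGHD1-1 has 4 tyrosine codons among 7, IGHD2-3 and IGHD2-4 have 3 among 5, and IGHD4-1 has 0.

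Both inguinal libraries consisted almost wholly of unswitched cells. IgM was called in 77.1% of WT cells (75.2 to 78.8) and 78.5% of 5xFAD cells (76.7 to 80.2), and IgD in 21.5% (19.8 to 23.3) and 20.3% (18.6 to 22.1). Switched cells numbered 31 in the WT library, 1.43% (0.974 to 2.02), and 25 in the 5xFAD library, 1.20% (0.778 to 1.77). The difference was -0.231 percentage points (-0.959 to 0.496), so it was within counting error, and the 4 cervical libraries lay higher, at 2.90% to 4.23%.

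The switched cells were of 4 classes. IgG1 was called in 11 WT and 7 5xFAD cells, IgG2b in 11 and 13, IgG2c in 5 and 3, and IgA in 4 and 2. IgG2b, a mouse class favoured by TGF-beta, was 35.5% of the switched WT cells (19.2 to 54.6) and 52.0% of the switched 5xFAD cells (31.3 to 72.2), a difference of 16.5 points (-11.7 to 42.4). IgG1, the class associated with type 2 help, was 35.5% (19.2 to 54.6) and 28.0% (12.1 to 49.4). For both classes the intervals of the libraries overlapped widely. IgG2c, the interferon-associated class of the C57BL/6 haplotype, was 16.1% of the switched WT cells (5.45 to 33.7) and 12% of the switched 5xFAD cells (2.55 to 31.2), with point values below the cervical range of 22.6% to 40.4%. IgG3, IgE and IgG2a were found in 0 cells of both libraries, which allows shares of up to 0.138% in WT and 0.144% in 5xFAD.

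**Figure D1:**
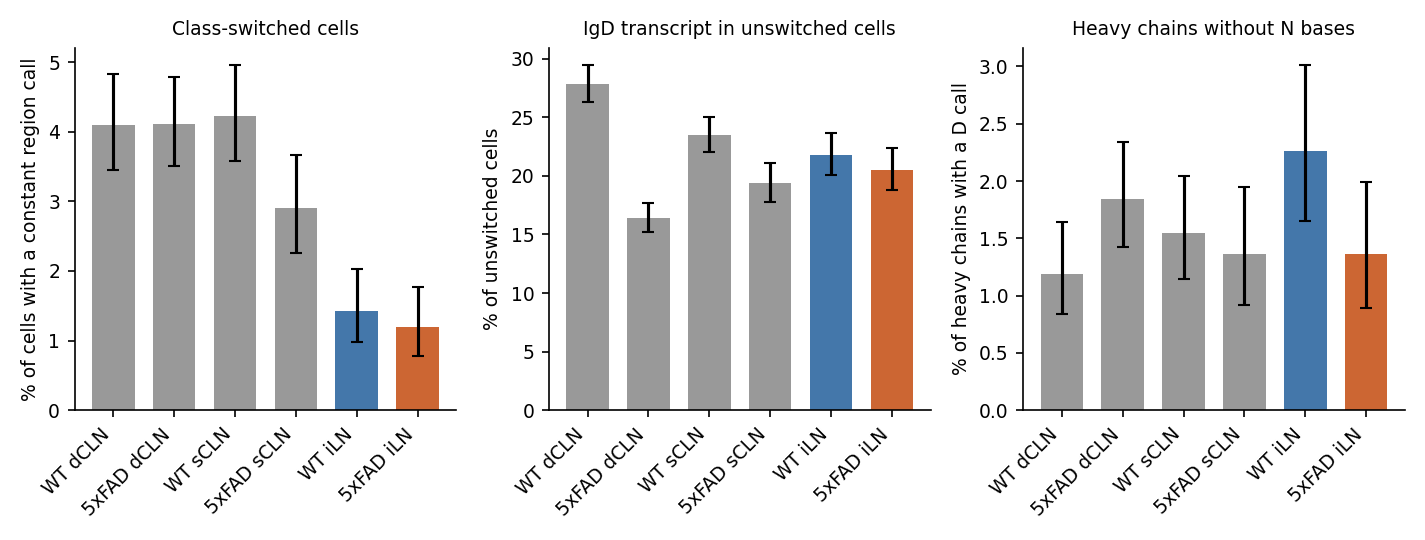
Percent of cells per library (y axes, from 0) that were class-switched, that carried IgD among unswitched cells, and whose heavy chain had no N bases, with exact 95% intervals as bars. Both inguinal libraries (blue and orange) sit at 1.43% and 1.20% switched cells, below the 4 cervical libraries (grey), and the WT inguinal library has the highest point value for heavy chains without N bases, 2.26%.

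The constant region call of an unswitched cell moved with its UMI number. IgM and IgD come from 1 primary transcript by alternative processing, and the table gives 1 constant region per contig. IgD was called in 68.5% of WT and 64.4% of 5xFAD unswitched cells with 1 to 2 heavy chain UMIs and in 63.5% and 58.2% of those with 3 to 5. At 6 to 10 UMIs the shares were 27.7% and 26.3%, at 11 to 20 UMIs 7.25% and 6.26%, and at 21 or more 1.52% and 1.18%. Within each of the 5 UMI ranges the interval of the difference between the libraries held 0. Over all unswitched cells IgD was called in 21.8% (20.1 to 23.6) and 20.5% (18.8 to 22.4), a difference of -1.27 points (-3.78 to 1.24).

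V mutation, the percent of heavy chain V bases that differed from germline, separated switched from unswitched cells in both libraries. It was 2.72% ± 2.13 (SD over 31 cells) in switched WT cells and 2.23% ± 2.29 (SD over 25 cells) in switched 5xFAD cells. The lowest, median and highest values were 0%, 2.08% and 8.07% in WT and 0%, 1.74% and 8.71% in 5xFAD, so the libraries overlapped over nearly their whole range. Unswitched cells were close to germline, at 0.0146% ± 0.135 (SD over 2134 cells) and 0.0116% ± 0.128 (SD over 2057 cells). Leaving out 2 V positions that recurrently differed from germline in unswitched cells, the means were 0.00992% and 0.00688%. The shares that follow still count those positions. No V substitution at all was present in 97.6% of unswitched WT cells (96.8 to 98.2) and 98.1% of unswitched 5xFAD cells (97.4 to 98.6).

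The order of the classes by mutation was not the same in the libraries. IgG1 cells had a mean of 2.53% in WT, with values from 0.347% to 5.90%, and of 4.47% in 5xFAD, from 1.74% to 8.71%. IgG2b cells had 3.24% in WT, from 0% to 8.07%, and 1.79% in 5xFAD, from 0% to 5.56%. All 3 IgG2c cells of the 5xFAD library were without a substitution, whereas the 5 of the WT library ranged from 0% to 4.21% with a mean of 2.51%. IgA cells had means of 2.08% (4 cells) and 0.521% (2 cells). The classes hold 2 to 13 cells each, and within every class most 5xFAD values fall inside the WT range. Most WT values fall inside the 5xFAD range for IgG1 and IgG2b, but not for IgG2c and IgA. Switched cells without any substitution were 4 of 31 in WT and 6 of 25 in 5xFAD, 12.9% (3.63 to 29.8) and 24.0% (9.36 to 45.1).

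**Figure D2:**
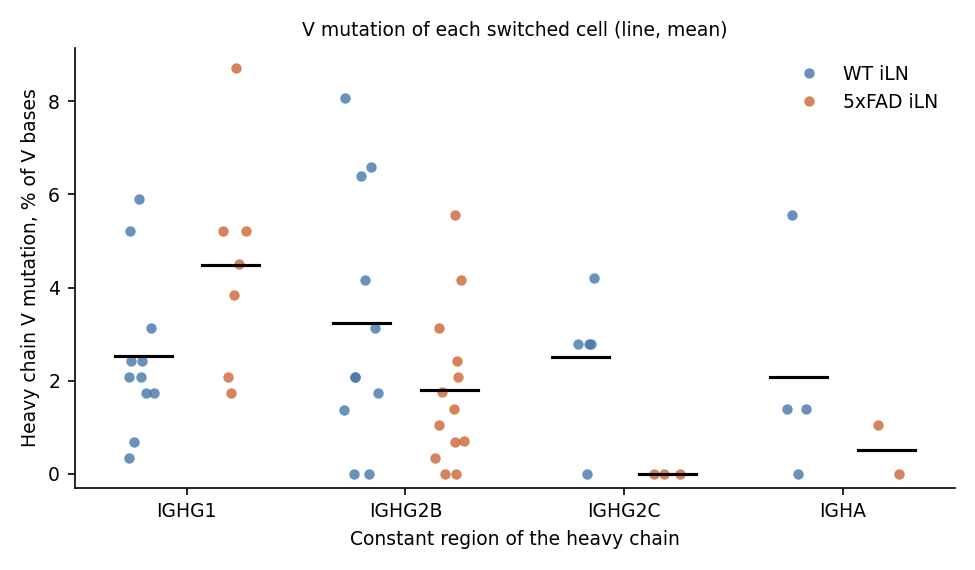
Heavy chain V mutation (y axis, percent of V bases) of each switched cell, by constant region gene (x axis) and library, with the mean as a line. The WT values (blue) reach 8.07% and the 5xFAD values (orange) 8.71%, and the 3 IgG2c cells of the 5xFAD library all lie at 0.

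The substitutions of switched cells were spread unevenly over the V segment in both libraries. CDR2 was the most mutated region, with 6.31% (4.66 to 8.33) of its WT bases and 5.00% (3.40 to 7.06) of its 5xFAD bases substituted, and framework 1 the least, with 1.55% (1.09 to 2.14) and 1.18% (0.738 to 1.77). CDR1 had 2.38% (1.42 to 3.74) and 3.50% (2.18 to 5.30), and framework 3 had 3.20% (2.64 to 3.83) and 2.32% (1.796 to 2.94). These intervals count each base singly, although substitutions of 1 cell are inherited together, so they can be too narrow. AGC or GCT, the core of the AID hotspot, held 14.5% of the WT and 15% of the 5xFAD substitutions but 4.69% and 5.45% of the V bases. Transitions were 148 of 242 substitutions in WT and 96 of 160 in 5xFAD. In the CDRs, replacement and silent substitutions numbered 50 and 14 in WT and 39 and 12 in 5xFAD. In the frameworks they numbered 119 and 59 in WT and 74 and 35 in 5xFAD.

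Counted by substitution, the base at which substitutions fell differed between the libraries. G or C was the mutated base in 47.1% of 242 WT substitutions (40.7 to 53.6) and 63.8% of 160 5xFAD substitutions (55.8 to 71.2), a difference of 16.6 points (6.37 to 26.5). The cervical libraries lay between them, at 57.9% to 60.3%. G and C made up 49.5% and 51.2% of the V bases compared, so base composition was alike. Substitutions of 1 cell are inherited together and are not independent. Every interval in this paragraph counts them singly and can therefore be too narrow. Averaged over mutated cells, the share was 55.1% ± 22.5 (SD over 27 cells) in WT and 62.9% ± 27.4 (SD over 19 cells) in 5xFAD, a gap smaller than the spread between cells. Without the 3 most mutated cells of each library the shares were 51.1% (43.6 to 58.6) and 65.4% (55.4 to 74.4), a difference of 14.3 points (1.84 to 26.0), and the libraries' intervals then overlapped. With 1 cell per clone the difference was 15.6 points (5.09 to 25.6).

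Related switched cells with the same light chain were 2 pairs in the WT library and 0 in the 5xFAD library. An IgG2b pair used IGHV5-16 with IGKV10-96 and an IgA pair used IGHV1-9 with IGKV12-46. A stretch from framework 2 through CDR2 into framework 3, written 5′ to 3′, is shown because it holds inherited and private substitutions side by side, with bases that differ from germline in capitals.
IGHV5-16 germline: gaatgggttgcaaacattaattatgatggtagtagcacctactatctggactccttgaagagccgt
IgG2b cell 1: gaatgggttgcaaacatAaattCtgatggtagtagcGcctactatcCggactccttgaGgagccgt
IgG2b cell 2: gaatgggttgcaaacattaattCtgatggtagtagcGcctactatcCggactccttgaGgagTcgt
IGHV1-9 germline: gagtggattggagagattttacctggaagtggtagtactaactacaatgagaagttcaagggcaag
IgA cells 1 and 2: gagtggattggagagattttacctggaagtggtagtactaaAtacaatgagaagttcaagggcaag
Over the whole V segment the IgG2b cells had 18 and 19 substitutions, 15 of them shared. The IgA cells had 4 each, all 4 shared. IGHV5-16 lies on chromosome 12 at 113838526 to 113839010 and IGHV1-9 at 114583569 to 114584002.

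Mutated unswitched cells were rare in both libraries. A mutation of 1% or more was present in 7 of 2134 WT and 6 of 2057 5xFAD unswitched cells, 0.328% (0.132 to 0.675) and 0.292% (0.107 to 0.634), and all 13 were IgM. The most mutated was a 5xFAD cell with IGHV6-6 at 4.08% and the next a WT cell with IGHV6-3 at 3.06%. An IgM pair in the WT library used IGHV4-1 with IGKV9-123, shared all 7 substitutions (2.43%) and had the same CDR3. Its junction, from the conserved cysteine codon to the conserved tryptophan codon with N bases in capitals, was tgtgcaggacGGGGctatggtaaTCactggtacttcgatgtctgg.

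Cells with 100 or more heavy chain UMIs, a limit fixed for high immunoglobulin transcript, numbered 3 in WT and 1 in 5xFAD. Whether these cells secreted antibody was not tested. The 3 WT cells were unmutated IgM cells with 107, 116 and 134 UMIs and used IGHV5-17, IGHV11-2 and IGHV1-54. The 5xFAD cell was an unmutated IgG2b cell with 436 UMIs and used IGHV1-15 with IGKV1-117.

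Heavy chain V use was close in the libraries. IGHV1, the largest family of the mouse, made up 57.9% of WT cells (55.8 to 59.9) and 57.7% of 5xFAD cells (55.6 to 59.8). IGHV5 made up 9.41% and 8.78%, IGHV2 7.14% and 6.41%, IGHV9 5.45% and 5.36%, IGHV14 5.00% and 5.46%, and IGHV8 4.91% and 5.98%. For each of the 15 families the interval of the difference held 0. The most used gene, IGHV1-26 (chromosome 12, 114788372 to 114788805), was in 6.95% of WT cells (5.93 to 8.10) and 6.41% of 5xFAD cells (5.40 to 7.54). By the mean of both libraries it was followed by IGHV9-3 (4.18% and 3.75%), IGHV3-6 (3.50% and 3.42%), IGHV8-8 (3.23% and 3.51%) and IGHV1-64 (2.73% and 3.27%).

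Among 40 heavy chain V genes at 1% or more of cells in either library, 2 were at least 1.5-fold higher in 5xFAD and 2 at least 1.5-fold lower, 5.0% of the genes each way. The same rule called 7.89% of genes either way between the dCLN libraries and 11.9% between the sCLN libraries, against 10.0% here. IGHV8-12 (chromosome 12, 115647945 to 115648387) was in 32 WT cells, 1.45% (0.997 to 2.05), and 51 5xFAD cells, 2.42% (1.81 to 3.17). IGHV6-3 (114391712 to 114392169) was in 1.09% (0.700 to 1.62) and 1.71% (1.20 to 2.36). IGHV2-5 (113685482 to 113686045) was in 27 WT cells, 1.23% (0.810 to 1.78), and 13 5xFAD cells, 0.617% (0.329 to 1.05). IGHV14-4 (114176438 to 114176867) was in 1.55% (1.07 to 2.15) and 0.997% (0.618 to 1.52). The libraries' intervals overlapped for all 40 genes, and only for IGHV8-12 and IGHV2-5 of these 4 was the interval of the difference all of one sign, 0.966 points (0.113 to 1.84) and -0.610 points (-1.23 to -0.00715). The 51 IGHV8-12 cells of the 5xFAD library had 48 distinct junctions, and the 32 of the WT library had 31.

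**Figure D3:**
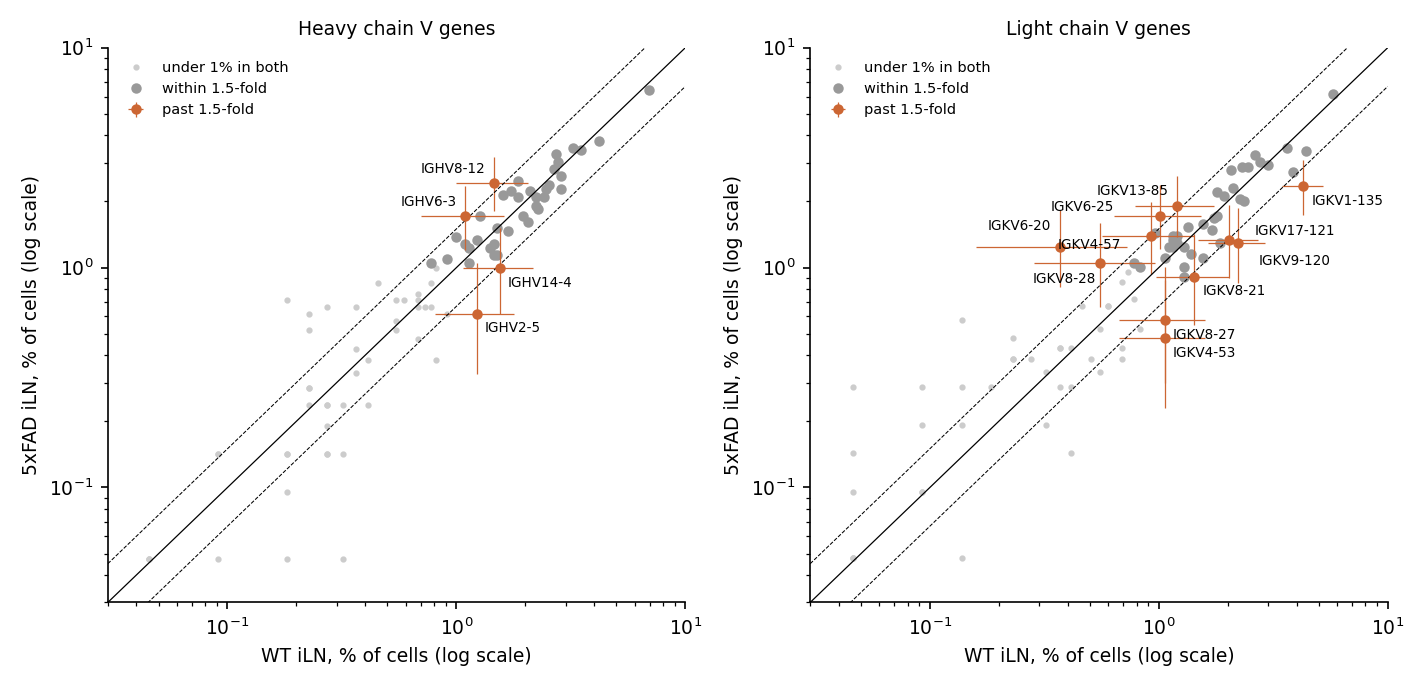
Share of cells with each heavy chain V gene (left) and light chain V gene (right) found in both libraries, in the WT (x axis) and 5xFAD (y axis) inguinal library, both on log scales, with the line of equality and dashed lines at 1.5-fold. Genes past 1.5-fold are orange with exact 95% intervals: 4 of 40 heavy chain genes and 11 of 47 light chain genes, with IGKV6-20 farthest from the line.

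Some V genes have known roles. IGHV1-72, the gene of the anti-nitrophenyl response of C57BL/6 mice, was in 59 cells of each library, 2.68% (2.05 to 3.45) and 2.8% (2.14 to 3.6). The innate-like list, IGHV11-1, IGHV11-2 and IGHV12-3, whose receptors bind phosphatidylcholine in B-1 cells, was in 5 WT cells and 1 5xFAD cell. IGHV11-2 was in 3 WT cells and 0 5xFAD cells, all 3 with IGHJ1 and 2 of them with IGKV14-126, its known partner. IGHV12-3 was paired with IGKV4-91, its known partner, in 1 cell of each library, with 60 UMIs in WT and 80 in 5xFAD. The other IGHV12-3 cell, in WT, was an IgG1 cell with IGLV1 and 5.90% mutation. IGHV4-1 was in 12 cells of each library.
IGHV11-2 with IGHD1-1, WT: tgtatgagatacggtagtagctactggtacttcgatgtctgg
IGHV12-3 with IGKV4-91, WT: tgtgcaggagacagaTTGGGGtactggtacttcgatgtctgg
IGHV12-3 with IGKV4-91, 5xFAD: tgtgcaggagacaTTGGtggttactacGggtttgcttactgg
These junctions are shown for the pairings typical of B-1 cells, with N bases in capitals. The IGHV11-2 junction shown has none. The other IGHV11-2 cell with IGKV14-126, of 116 UMIs, had 4 N bases at the first joint and 0 at the second. The IGHV11-2 cell with IGKV1-110 had 4 and 6.

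D segment use was led by the same segments in both libraries. IGHD1-1 was called in 38.3% of WT (36.1 to 40.4) and 36.2% of 5xFAD (34.1 to 38.4) heavy chains with a D call. The joint call of IGHD2-4 or IGHD2-9 followed with 11.0% and 11.3%, and IGHD2-4 was called alone in 0 cells. IGHD4-1 had 10.5% and 9.87%, IGHD2-3 8.24% and 8.25%, and IGHD2-5 or IGHD2-6 4.82% and 5.67%. Of 14 segments or joint calls at 1% or more, 2 were past 1.5-fold, both higher in 5xFAD, 14.3% of those compared. These were IGHD3-1 or IGHD3-2, in 14 and 21 cells (0.703% and 1.10%), and IGHD2-1 or IGHD2-8, in 16 and 23 cells (0.804% and 1.21%), each with an interval of the difference that held 0. Between the dCLN libraries 15.4% were past 1.5-fold and between the sCLN libraries 8.33%. With at least 3 heavy chain UMIs 0 were higher and 1 was lower, and without joint calls 0 of 5 segments were past 1.5-fold.

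Reading frames were alike. In IGHD1-1 heavy chains, the tyrosine-rich frame shown above (first D base at codon position 2) was used in 74.9% of WT (71.7 to 78) and 75.8% of 5xFAD cells (72.4 to 78.9). The frame with the first base at position 1 was used in 21.8% and 19.4%. The frame at position 3, in which germline IGHD1-1 has 2 stop codons, was used in 3.28% and 4.78%. Over the IGHD1 and IGHD2 families the tyrosine-rich frame was used in 79.1% (77.0 to 81.1) and 78.5% (76.3 to 80.6).

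The J segments followed 1 order in both libraries. IGHJ2 was in 33.1% of WT and 34.1% of 5xFAD cells, IGHJ4 in 24.3% and 24.8%, IGHJ3 in 22.8% and 22.0%, and IGHJ1 in 19.8% and 19.2%, and each interval of the difference held 0. IGHD4-1, the segment nearest to the J segments, was joined to IGHJ2 in 42.9% (36.1 to 49.8) and 50.5% (43.2 to 57.9) of its cells. IGHD1-1 was joined to IGHJ2 in 33.9% of its cells in both libraries and to IGHJ1 in 26.5% and 27.2%.

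Heavy chain CDR3 length did not separate the libraries. It was 12.2 ± 2.65 codons (SD over 2200 cells) in WT and 12.1 ± 2.56 codons (SD over 2107 cells) in 5xFAD, with a median of 12 in both and a difference of -0.0356 codons. Loops of 18 or more codons were in 2.05% (1.5 to 2.73) and 1.66% (1.16 to 2.30) of cells, and loops of 7 or fewer in 3.82% and 3.75%. Length followed the J segment: 13.2 codons with IGHJ1 in both, 11.1 and 11.3 with IGHJ2, 11.7 and 11.6 with IGHJ3, and 13.2 and 13 with IGHJ4. Switched cells had 12.8 and 12.9 codons. Tyrosine made up 20.1% ± 9.01 and 20.5% ± 9.10 of CDR3 residues (SD over cells), and the net charge was -0.324 ± 1.22 and -0.276 ± 1.25.

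**Figure D4:**
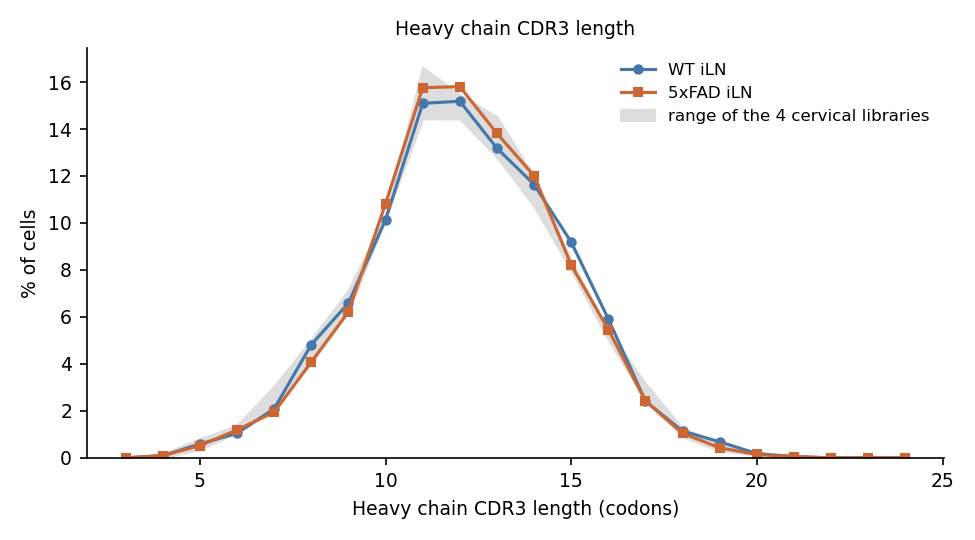
Heavy chain CDR3 length in codons (x axis) against percent of cells (y axis) for the WT (blue) and 5xFAD (orange) inguinal libraries, with the range of the 4 cervical libraries in grey. Both curves peak at 11 to 12 codons, with 15.1% and 15.2% of WT cells and 15.8% of 5xFAD cells at each.

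N additions were of like length. The first N region, between V and D, had 4.16 ± 2.97 bases in WT and 4.2 ± 2.98 in 5xFAD, and the second, between D and J, 3.00 ± 2.75 and 2.93 ± 2.61 (SD over 1991 and 1904 cells). Heavy chains with 0 N bases at both joints, which are typical of B cells made in fetal and neonatal life before TdT is expressed, were in 45 WT cells, 2.26% (1.65 to 3.01), and 26 5xFAD cells, 1.37% (0.894 to 1.99). The difference was -0.895 points (-1.78 to -0.0206), with overlapping intervals of the libraries, and the cervical libraries lay at 1.19% to 1.84%. With D alignments of at least 8 bases only, the shares were 1.71% and 1.11% and the interval of the difference held 0 (-1.52 to 0.298), as it did under 6 of 7 alternatives in all. Of these cells 18 of 45 in WT and 5 of 26 in 5xFAD used IGHJ1, their CDR3 had 10.1 ± 1.87 and 9.62 ± 2.56 codons, and they had 42 and 26 distinct junctions.

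Lambda chains, which make up a small share of mouse light chains, were in 4.79% of WT cells (3.93 to 5.77) and 4.69% of 5xFAD cells (3.83 to 5.69). Among lambda cells IGLV1 was in 76.0% and 74.5%, IGLV2 in 12.5% and 14.3% and IGLV3 in 11.5% and 11.2%. All 12 WT and 11 5xFAD IGLV3 cells used IGLJ2. At least 2 productive light chains were found in 8.48% (7.34 to 9.73) and 7.57% (6.47 to 8.79) of cells with a light chain. Those cells were represented by the light chain of most UMIs.

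IGKJ1 and IGKJ2 were the most used kappa J segments in both libraries. IGKJ1 was in 31.4% of WT kappa cells (29.4 to 33.5) and 29.1% of 5xFAD kappa cells (27.2 to 31.2), IGKJ2 in 29.2% and 29.1%, IGKJ4 in 13.5% and 14.1%, and IGKJ5 in 25.8% and 27.6%. The intervals of all 4 differences held 0. The IGKJ1 difference was -2.30 points (-5.16 to 0.563). Its interval lay below 0 in cells with at least 3 heavy chain UMIs, at -2.97 points (-5.90 to -0.0343), and in cells with exactly 1 light chain, at -3.05 points (-6.03 to -0.0618). The interval held 0 under every other alternative. With cells of identical heavy and light junctions counted once the difference was -2.24 points (-5.14 to 0.680), and with each clone counted once -1.96 points (-4.90 to 0.978). With barcodes of more than 1 heavy chain kept it was -2.18 points (-5.00 to 0.641). Without barcodes that also occurred in another library it was -1.89 points (-4.77 to 1.01).

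Light chain V use differed between the libraries in more genes than heavy chain V use. Of 47 genes at 1% or more in either library, 5 were at least 1.5-fold higher in 5xFAD (10.6%) and 6 at least 1.5-fold lower (12.8%), 23.4% in all. The same rule called 16.3% of genes between the dCLN libraries and 9.09% between the sCLN libraries. The libraries' intervals were apart for 2 of the 47 genes, IGKV1-135 and IGKV6-20.

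IGKV1-135 (chromosome 6, 67609713 to 67610508), near the distal end of the locus, was in 93 WT cells, 4.28% (3.47 to 5.22), and 49 5xFAD cells, 2.35% (1.74 to 3.09). The difference was -1.94 points (-3.05 to -0.835), and the cervical libraries lay between, at 2.87% to 3.70%. Its cells had 91 distinct heavy chain junctions in WT and 46 in 5xFAD. It was joined to IGKJ1 in 63 of 93 and 25 of 49 cells. Its commonest junction with IGKJ1, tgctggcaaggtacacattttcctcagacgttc, was in 25 WT and 12 5xFAD cells.

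IGKV6-20 (70335841 to 70336507) was in 8 WT cells, 0.368% (0.159 to 0.725), and 26 5xFAD cells, 1.25% (0.815 to 1.82), a ratio of 3.38 and a difference of 0.877 points (0.318 to 1.49). The cervical libraries ranged from 0.621% to 1.33%, so the WT inguinal share was below that range and the 5xFAD share within it. The 26 cells had 24 distinct heavy chain junctions and 19 heavy chain V genes. Between the cervical libraries the gene was lower in 5xFAD, with ratios of 0.469 in the dCLN and 0.732 in the sCLN.

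The other light chain genes past 1.5-fold differed less. Higher in 5xFAD were IGKV13-85 (1.20% and 1.92%), IGKV6-25 (1.01% and 1.72%), IGKV8-28 (0.553% and 1.05%) and IGKV4-57 (0.921% and 1.39%), all with intervals of the difference that held 0. Lower were IGKV17-121 (2.21% and 1.29%), IGKV9-120 (2.03% and 1.34%), IGKV4-53 (1.06% and 0.479%), IGKV8-21 (1.43% and 0.910%) and IGKV8-27 (1.06% and 0.575%). Of these, IGKV17-121 and IGKV4-53 had an interval of the difference of one sign, -0.918 points (-1.75 to -0.0982) and -0.580 points (-1.16 to -0.0241). The most used gene was IGKV10-96 in both libraries, with 5.76% (4.82 to 6.82) and 6.18% (5.18 to 7.30), followed, by the mean of both, by IGKV1-117 (4.38% and 3.40%), IGLV1 (3.64% and 3.50%), IGKV1-135 (given above) and IGKV6-15 (3.87% and 2.73%). By family, IGKV1 was in 13.1% of WT kappa cells (11.7 to 14.6) and 10.4% of 5xFAD kappa cells (9.05 to 11.8), a difference of -2.76 points (-4.77 to -0.745). IGKV1-135, a member of that family, was in 4.499% and 2.46% of kappa cells.

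Kappa V genes were then ordered along the locus, where distal genes lie far from the J segments. The order and the split into 3 groups of 31 genes each were chosen after the gene values were seen. The distal group was used by 39.98% of WT kappa cells (37.9 to 42.1) and 35.2% of 5xFAD kappa cells (33.1 to 37.3), with intervals apart and a difference of -4.80 points (-7.81 to -1.79). The middle group was used by 27.5% (25.6 to 29.5) and 30.7% (28.6 to 32.7), and the proximal group by 32.5% (30.5 to 34.5) and 34.2% (32.1 to 36.3). Without IGKV1-135 cells the distal shares were 37.2% and 33.5%, a difference of -3.61 points (-6.64 to -0.581). The distal difference between the cervical libraries was -4.76 points in the dCLN and -3.02 points in the sCLN. The labels do not say whether nodes came from the same animals, so these cannot be taken as independent, and genotype cannot be told apart from animal, litter or library.

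**Figure D5:**
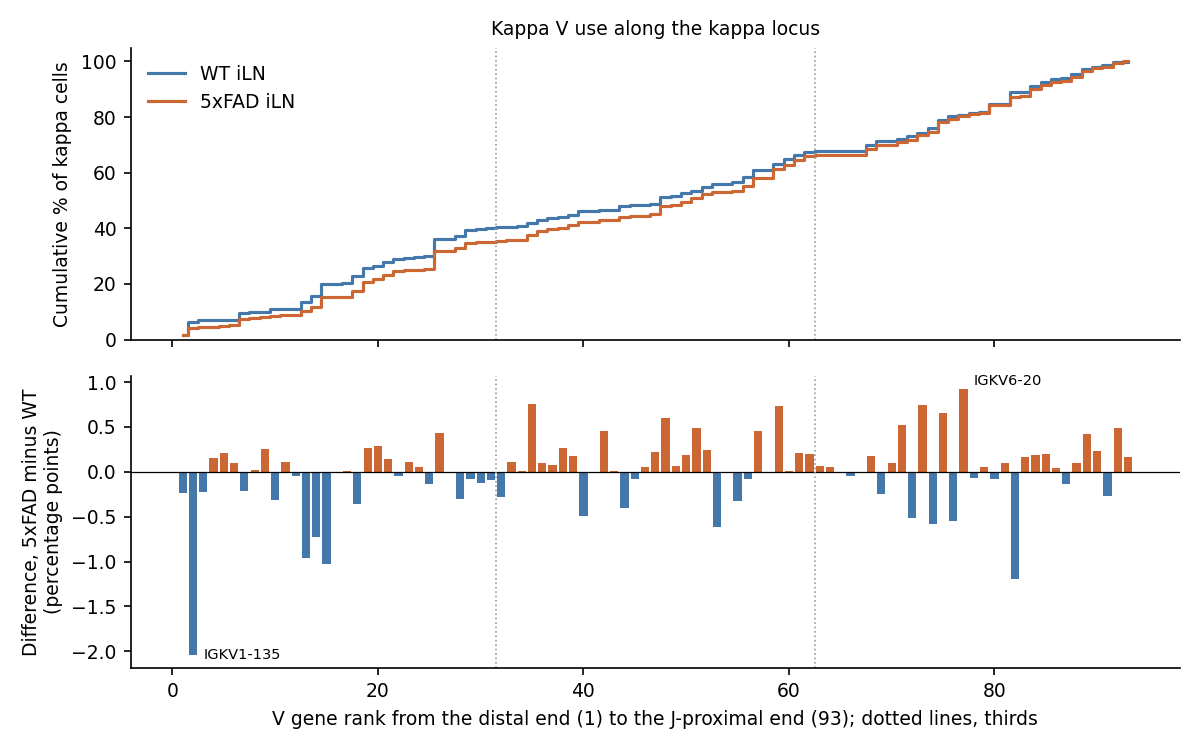
Top, cumulative percent of kappa cells (y axis) over the 93 kappa V genes ranked from the distal end to the J segments (x axis) in the WT (blue) and 5xFAD (orange) inguinal libraries. Bottom, the 5xFAD minus WT difference in percentage points per gene, with dotted lines between the 3 groups of genes: the WT curve stands at 39.98% and the 5xFAD curve at 35.2% after the distal group, and IGKV1-135 has the lowest bar.

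Kappa CDR3 loops had 9 codons in 90.3% of WT (88.9 to 91.5) and 91.4% of 5xFAD cells (90.1 to 92.6). Loops of 8 codons were in 7.31% (6.22 to 8.51) and 5.53% (4.56 to 6.62), a difference of -1.78 points (-3.32 to -0.235), beside 6.07% to 6.53% in the cervical libraries. Light chain junctions recurred across cells far more than heavy chain junctions. A junction seen in at least 1 other cell of the library was carried by 88.1% of WT and 88.6% of 5xFAD cells for the light chain, against 5.55% and 7.31% for the heavy chain. The commonest light junction, IGKV10-96 joined to IGKJ1, was in 45 WT and 47 5xFAD cells with 89 distinct heavy junctions between them: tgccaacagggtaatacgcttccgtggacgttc.

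Clones were small in both libraries. With heavy chain V, J and junction alone, and draws of 2107 cells, 8.70% of WT and 9.68% of 5xFAD cells were joined to another cell. The same rule joined cells of the WT and the 5xFAD library, which cannot share an animal, in 94 clones. Cells joined by heavy chain alone therefore need not be kin. With cells of identical heavy and light junctions counted once, the order turned, at 3.70% and 3.00%. With the same light chain also required, 122 WT cells were in 60 clones, 5.62% (4.69 to 6.67), and 147 5xFAD cells in 72 clones, 7.04% (5.98 to 8.22), and the largest clones had 3 cells. Nearly all were groups of cells with identical heavy and light junctions, 57 in WT and 71 in 5xFAD. Whether such a group is sister cells or 1 cell under several barcodes was not tested. The clones of 3 cells were unmutated and of IgM or IgD, and their heavy junctions were as follows, with N bases in capitals.
WT, IGHV1-74 with IGKV17-121: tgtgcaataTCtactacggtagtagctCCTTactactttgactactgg
WT, IGHV3-6 with IGKV8-21: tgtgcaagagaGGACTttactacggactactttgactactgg
5xFAD, IGHV1-15 with IGKV10-96: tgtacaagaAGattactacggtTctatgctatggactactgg
5xFAD, IGHV1-52 with IGKV4-59: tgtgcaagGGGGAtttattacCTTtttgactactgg
5xFAD, IGHV5-9 with IGKV12-46: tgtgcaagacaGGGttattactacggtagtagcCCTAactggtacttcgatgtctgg
With the light chain required, 4 of 30 switched WT cells were in clones, 13.3% (3.76 to 30.7), and 0 of 25 switched 5xFAD cells (0 to 13.7). By heavy chain alone they were 5 of 31 and 1 of 25.

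Sharing between the libraries stayed at the level of similar heavy chains. Clones by heavy chain alone were shared at 20.3 per 1000000 pairs of cells (16.4 to 24.8, exact Poisson interval, 94 clones), beside 16.1 (14.6 to 17.6) between the WT inguinal and the cervical libraries and 15.8 (14.3 to 17.3) between the 5xFAD inguinal and the cervical libraries. These rates were not thinned, and a shared clone counts once however many pairs of cells it joins. They can therefore depend on library size, and the cervical libraries were larger, with 2356 to 3904 cells. An identical heavy junction occurred in both inguinal libraries once, with IGHV9-3, IGHD1-1 and IGHJ1, on different light chains (IGKV4-53 and IGLV1): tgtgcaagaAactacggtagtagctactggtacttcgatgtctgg. With an identical heavy junction and the same light chain, 0 clones were shared between the inguinal libraries. Those libraries shared 5 such clones (WT) and 1 (5xFAD) with cervical libraries, counted once per pair of libraries. The 5xFAD one was an unmutated IgG2c cell with IGHV1-7 and IGKV5-39 that had a counterpart in the 5xFAD dCLN, and its junction was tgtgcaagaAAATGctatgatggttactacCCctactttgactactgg. A clone with IGHV1-26 and IGKV2-137 had 2 cells in the WT iLN, 4 in the WT dCLN and 9 in the WT sCLN. A receptor without N bases, IGHV4-1 joined to IGHD4-1 and IGHJ1 with IGKV1-110, was in 1 WT iLN cell, 1 WT dCLN cell and 5 5xFAD dCLN cells, and so in both genotypes: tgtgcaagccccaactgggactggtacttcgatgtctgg.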

How the data were processed

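Receptor libraries came from droplet capture of 5′ transcript ends, per the labels' protocols. The submitters' processing notes list mm10, Cell Ranger 6.0.1 and Seurat 4.1.0. The germline set of the gene calls is not given in the sources used here. The deposited tables hold 1 assembled contig per line, with UMI and read counts, V identity as a fraction, and positions and N lengths in bases, per the file headers.

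Python 3.11.15 with pandas 2.3.3 and scipy 1.17.1 was used. Possible doublets with more than 1 heavy chain (2.78% of WT and 2.59% of 5xFAD heavy chain barcodes) were dropped, and no doublet caller was run. V mutation was counted over IMGT positions 1 to 312, and 2 cells per library had no value. Joint gene calls were kept as joint names. Clones shared V, J and junction length within a Hamming distance of 0.15, averaged over 1000 draws where thinned. Where 0 cells were found, the limit printed is 3 cells of the total. Named genes were those at 1% or more that passed 1.5-fold, the most used, and fixed lists. Members and lists were chosen with earlier results of these data known. Coordinates are from GENCODE M21 on GRCm38 (mm10), where 17 of 32 D names were found. Scripts were tested on simulated data. Alternatives changed 1 choice at a time.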

Additional observations from a re-analysis of the deposited data

Results flagged for a closer look

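IGKV6-20 differed in direction between nodes. Its 5xFAD share was 3.38 times the WT share in the inguinal libraries (26 and 8 cells) and 0.469 times the WT share in the dCLN libraries. With 1 library per node and genotype, the difference between the nodes was not tested.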

How the results depend on the processing

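Of 121 values under an alternative, over 18 results, 112 stayed within a limit, 9 moved further, and 0 differences of one sign reversed. The limit was set by the counting interval, the spread over cells, or 1.5 times for counts. For means it was the SD over cells, 2.56 codons for a CDR3 difference of -0.0356, so means could hardly pass it. Requiring a light chain leaves light chain results unchanged by definition. The 112 are therefore not a measure of stability. Heavy chain V genes past 1.5-fold were 4 of 40 (2 higher, 2 lower in 5xFAD). With genes at 0.5% or more they were 11 of 60 (8 higher, 3 lower). With at least 3 heavy chain UMIs they were 4 of 39 (3 higher, 1 lower), and at 2-fold 0 of 40. D segments past 1.5-fold were 2 of 14 (both higher), and 1 of 14 (lower) with at least 3 heavy chain UMIs. At 0.5% or more they were 8 of 22 (5 higher, 3 lower). With D alignments of at least 8 bases they were 1 of 11, and without joint calls 0 of 5. Light chain V genes past 1.5-fold were 11 of 47, and 16 of 60 at 0.5% or more (6 higher, 10 lower). At 2-fold they were 2 of 47. The rate of shared clones, 20.3 per 1000000 pairs, was 0.216 with identical junctions and 0 with the same light chain as well. The distal kappa difference stayed between -5.50 and -3.61 points under the alternatives, all with intervals below 0, and these alternatives, the 2-fold limit and those of the mutated base were chosen after seeing the data. The interval of the difference in heavy chains without N bases held 0 under 6 of 7 alternatives, all but the light chain requirement. Counting identical cells once turned the difference in cells in clones from 0.987 to -0.696 points. No paired analysis was possible because each group has 1 library. The number of switched cells, 31 and 25, limits every comparison of classes and mutation.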
